A study of Mus musculus with 8 samples.

Results

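The 10 genes examined belong to calcium release and reuptake in skeletal muscle, and were measured in quadriceps RNA. They are the rows of the deposited expression table whose gene name is Cacna1s, Ryr1, Jph1, Jph2, Casq1, Casq2, Atp2a1, Atp2a2, Sln or Pvalb, out of 47643 rows in all. The series asked how loss of Nup210, a transmembrane protein of the nuclear pore complex, changes muscle RNA. It holds 8 libraries from mice whose strain is labelled C57BL/6, and which the methods give as backcrossed to C57BL/6J, 4 labelled Nup210-/- and 4 labelled Nup210+/+, each made from frozen quadriceps, and no treatment is given for either. The knockout is constitutive, made by Hprt-driven Cre recombination of a loxP-flanked exon 2, so every cell type of the mouse carries it, and the age and sex of these mice are not given in the sources used here. All 10 genes passed the filter on low values.

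In a muscle fiber, an action potential in the transverse tubule moves the voltage sensor Cav1.1, which opens the ryanodine receptor of the sarcoplasmic reticulum facing it. Calcium stored on calsequestrin leaves through that receptor, the contractile proteins respond, and SERCA pumps return calcium to the store while parvalbumin binds it in the cytosol. Fast fibers use SERCA1 and parvalbumin, whereas slow fibers and heart use SERCA2. Fast fibers use calsequestrin 1, heart uses calsequestrin 2, and slow fibers use both. The balance between these partners thus shifts with the fiber types of a muscle.

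The values are TPM, relative transcript abundances corrected for transcript length brought to the same sum in each library, so levels of different genes can be compared. How many reads lie behind a value is unknown, and precision rests on the spread between mice. Nup210 itself was 8.81 to 11.93 TPM in the libraries labelled Nup210-/- and 5.71 to 10.11 TPM in those labelled Nup210+/+, which overlap. Its log2 fold change was 0.44 (interval 0.11 to 0.77, unadjusted p 0.0146 and adjusted p 0.231 in limma), a difference above 0 for the targeted gene, and a value per gene does not show whether exon 2 is present. The directions below therefore rest on the labels. Marker genes showed fast quadriceps muscle, with Myh4, the myosin of the fastest fibers, at 7218 to 9582 TPM and Myh7, the slow myosin, at 60.7 to 140 TPM. The 8 fast-fiber markers together were 65599 to 73318 TPM with Nup210+/+ and 70038 to 75093 TPM with Nup210-/-, and all 8 had a positive log2 fold change. The 7 leukocyte markers together were 243 to 483 TPM and 215 to 237 TPM in the same order, without overlap, and all 7 had a negative log2 fold change. The 4 tendon markers were 84.2 to 138 TPM and 57.9 to 91.9 TPM, with a median log2 fold change of −0.57, all 4 negative and 3 of 4 at an unadjusted p under 0.05 in limma. The smooth muscle markers went both ways, 2 of 4 tested above 0 and 2 below: Acta2 was 19.0 to 26.3 TPM and 14.1 to 15.6 TPM, while Des, which skeletal fibers also express, was 1058 to 1138 TPM and 1155 to 1259 TPM. Of the Nup210+/+ libraries, replicates 2 and 3 stood apart. Replicate 2 had 6 markers of granulocyte precursors at 382 TPM in sum against 0.31 to 2.12 TPM in the others, and replicate 3 had 5 fat-cell markers at 982 TPM in sum against 412 to 576 TPM in the others. The part of these markers in the results was not tested.

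The 10 genes differed widely in level. Atp2a1, the pump of fast fibers, had the highest mean over the 8 libraries at 9507 TPM, rank 24 of all genes in the table. Pvalb followed at 7749 TPM and Casq1 at 1590 TPM, and these leading ranks held in 8 of 8 libraries. Cacna1s at 301 TPM and Ryr1 at 282 TPM came next, the voltage sensor and the channel it opens. Cacna1s exceeded Ryr1 in 7 of 8 libraries with overlapping ranges, and Ryr1 exceeded Jph2, at 234 TPM, in 7 of 8 with overlapping ranges, so these neighbors were not separated beyond their spread. Jph2 exceeded Atp2a2, at 136 TPM, in 8 of 8 libraries. Atp2a2 and Jph1, at 131 TPM, were not separated, as Atp2a2 was the higher in 5 of 8. Casq2 lay lower at 51.2 TPM and Sln was the lowest at 10.8 TPM. Together the 10 genes took 1.84 to 2.23% of the TPM of a library.

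The genes also differed in how much they varied between mice. Jph1 had the smallest coefficient of variation over the 8 libraries, 4.60%, and Casq1 followed at 5.01%. The coefficient was 27.9% for Sln, 27.8% for Atp2a2 and 23.8% for Casq2, whose highest library was 2.12, 2.03 and 2.17 times the lowest. The remaining genes lay between 6.04 and 9.19%.

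**Figure D1:**
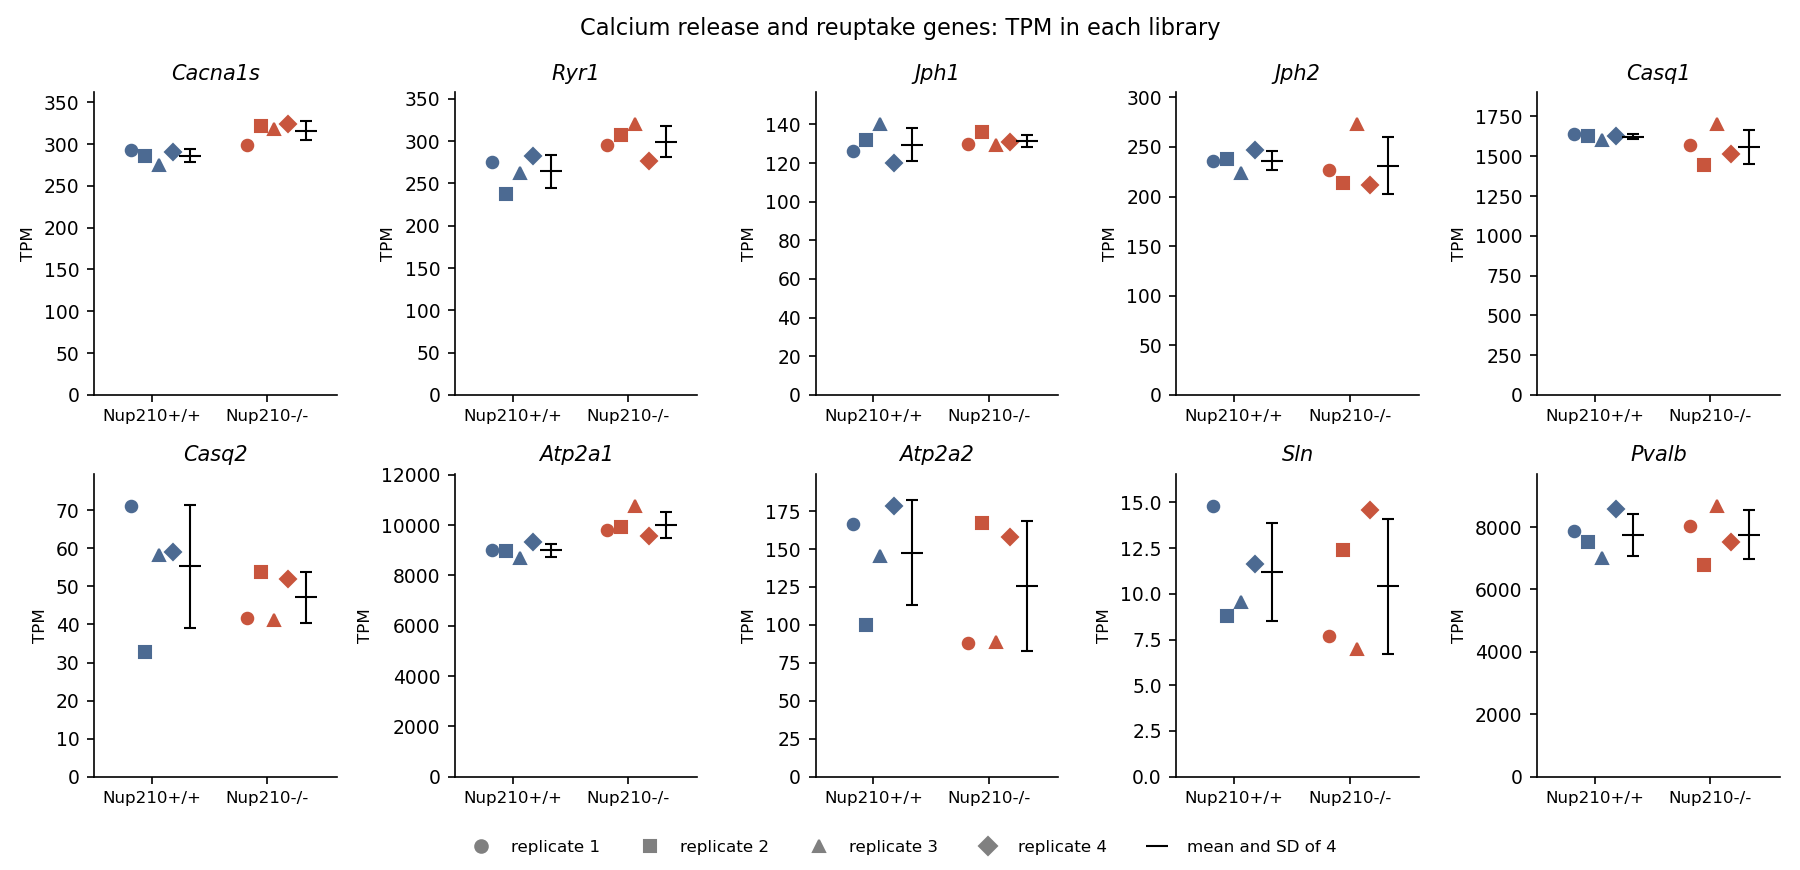
TPM of each gene (vertical axes, linear and starting at 0) in the 4 libraries of each genotype, with symbols for the replicate number and a bar for the mean and SD of 4 libraries. Cacna1s and Atp2a1 do not overlap between genotypes, and Casq2, Atp2a2 and Sln show the widest spread within each genotype.

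Between genotypes, 0 of the 10 genes reached the threshold of 0.05 on the adjusted p, against 16 of 14229 tested genes, or 0.112%. The test was limma on log2(TPM + 1) after each library was scaled by a median of ratios, with Benjamini-Hochberg adjustment over all tested genes. A fold change is given as Nup210-/- minus Nup210+/+ on that scale, which understates changes of low genes. At an unadjusted p under 0.05 there were 4 of the 10 genes (Ryr1, Cacna1s, Atp2a1 and Jph1), beside a background of 14.2% of tested genes. All 4 were higher in the libraries labelled Nup210-/-, while the tested genes were 996 higher and 1021 lower (335 and 1679 with TPM as deposited). Without Nup210+/+ replicate 2 there were 5 of the 10, with 4 higher and Casq2 lower, and without Nup210+/+ replicate 3 there were 3, all higher. In either case 0 passed the adjusted threshold. Groups did not overlap on scaled values for 3 of the 10, all higher, against 4.78% of tested genes higher, and on deposited TPM for 2, all higher, against 1.54%. Of the 10 genes, 7 had a positive log2 fold change (48.7% of tested genes did), and 4 had one with TPM as deposited. Their median was 0.08, and −0.02 from TPM as deposited, while that over the tested genes was −0.01 and −0.08. Without Nup210+/+ replicate 3 the median of the 10 was 0.00049. In RNA from whole muscle, fewer cells of a type and less RNA per cell cannot be told apart.

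**Figure D2:**
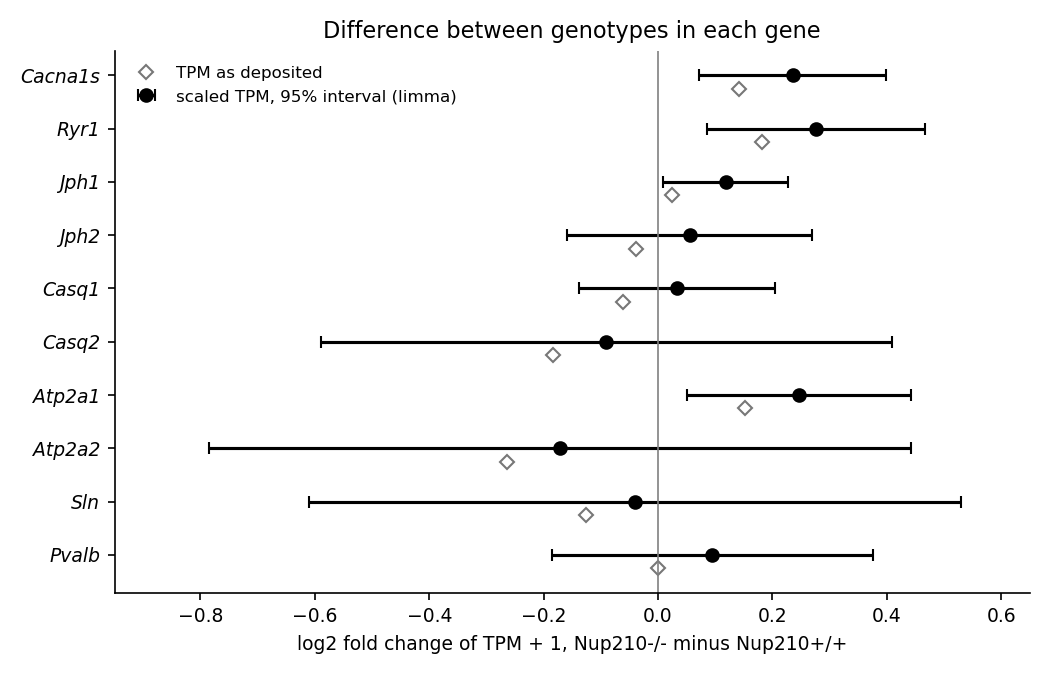
Log2 fold change of each gene (horizontal axis, Nup210-/- minus Nup210+/+). Filled circles are scaled TPM with the 95% interval from limma and open diamonds are TPM as deposited. The intervals of Cacna1s, Ryr1, Jph1 and Atp2a1 lie above 0, and the diamonds of Jph2 and Casq1 lie below 0 where their circles lie above it.

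Cacna1s (ENSMUSG00000026407) encodes the pore-forming subunit of the voltage sensor and lies at chr1:136052750-136119822 of GRCm38, plus strand. It was 293, 286, 275 and 290 TPM in Nup210+/+ replicates 1 to 4 and 299, 322, 318 and 323 TPM in Nup210-/- replicates 1 to 4. All 4 libraries labelled Nup210-/- were above all 4 labelled Nup210+/+, with means of 316 ± 11.3 and 286 ± 7.76 TPM (SD, n = 4). The log2 fold change was 0.24 (standard error 0.072, 95% interval 0.07 to 0.40), with an adjusted p of 0.207 in limma. The two-sided exact permutation test gave p = 0.0286 on TPM, the smallest that 4 against 4 can give. The difference was positive under each of 19 alternative settings, from 0.14 to 0.28.

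Ryr1 (ENSMUSG00000030592), the calcium release channel, is on the minus strand at chr7:29003344-29125179. Its TPM were 275, 237, 262 and 282 in Nup210+/+ replicates 1 to 4 and 295, 307, 320 and 276 in Nup210-/- replicates 1 to 4. The labels overlapped in a narrow band, since Nup210-/- replicate 4 lay below Nup210+/+ replicate 4. The means were 300 ± 18.4 and 264 ± 19.7 TPM (SD, n = 4), and the difference was 0.28 on the log2 scale (standard error 0.085, interval 0.08 to 0.47, adjusted p 0.207 in limma). The exact permutation test on TPM gave p = 0.0571, and the alternatives ranged from 0.18 to 0.35.

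The junctophilins tie the transverse tubule to the sarcoplasmic reticulum. Jph1 (ENSMUSG00000042686, chr1:16964560-17097889, minus strand), a form of skeletal muscle, was 126, 132, 140 and 120 TPM with Nup210+/+ and 130, 136, 129 and 131 TPM with Nup210-/-. On deposited TPM the groups overlapped fully and the exact permutation test gave p = 0.714. After scaling, the groups did not overlap, the difference was 0.12 on the log2 scale (standard error 0.048, adjusted p 0.314 in limma), and TPM as deposited gave 0.02. Jph2 (ENSMUSG00000017817, chr2:163336242-163397993, minus strand), which is also the form of heart, was 236, 238, 224 and 247 TPM with Nup210+/+ and 226, 213, 273 and 211 TPM with Nup210-/-. Nup210-/- replicate 3 was the highest of all 8 libraries, and replicates 2 and 4 of the same label were the lowest. Its log2 fold change was 0.06 (interval −0.16 to 0.27, adjusted p 0.817), and −0.04 as deposited.

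The longest stretch that the transcripts of both junctophilins share is shown because reads are assigned by sequence and paralogs are where reads could be misassigned. It has 35 bases and lies in the coding part of each.
Jph1 and Jph2: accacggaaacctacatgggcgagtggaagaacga
A read of this study has up to 75 bases, longer than any stretch that a pair of these paralogs shares. Of all 75-base windows of the annotated transcripts, 0 were found in another gene for 9 of the 10 genes, and Atp2a2 shared 136 of 6153 windows, or 2.21%, with Gm30970.

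Calsequestrins are the calcium-binding proteins of the store. Casq1 (ENSMUSG00000007122, chr1:172209894-172219868, minus strand) is the form of fast fibers, also used in slow ones. It was 1637, 1626, 1601 and 1626 TPM with Nup210+/+ and 1573, 1445, 1700 and 1512 TPM with Nup210-/-. On deposited TPM, Nup210+/+ libraries lay within a narrow range inside the wider one of Nup210-/-, with SDs of 15.4 and 108 TPM (n = 4 each). This contrast was absent after scaling, with ranges of 1425 to 1704 TPM for Nup210+/+ and 1464 to 1693 TPM for Nup210-/-. The log2 fold change was 0.03 after scaling (interval −0.14 to 0.20, adjusted p 0.870) and −0.06 as deposited. Casq2 (ENSMUSG00000027861, chr3:102086415-102146514, plus strand), a form used in slow fibers and heart, was 71.1, 32.8, 58.3 and 59.0 TPM with Nup210+/+ and 41.6, 53.9, 41.2 and 51.8 TPM with Nup210-/-. The highest and the lowest of the 8 values both carry the label Nup210+/+. Its log2 fold change was −0.09 (interval −0.59 to 0.41, adjusted p 0.882), and it was 0.05 without Nup210+/+ replicate 1 and −0.32 without Nup210+/+ replicate 2.

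The genes of both calsequestrins share at most 25 consecutive bases, shown because they lie near the end of the coding sequence, in the acidic tail that binds calcium. Read in frame, 7 of 7 codons in each gene are GAT or GAC, which encode aspartate.
Casq1 and Casq2: acgatgacgatgatgatgacgacga

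SERCA pumps return calcium to the store. Atp2a1 (ENSMUSG00000030730, chr7:126445858-126463108, minus strand) was 9024, 8953, 8698 and 9331 TPM in Nup210+/+ replicates 1 to 4 and 9807, 9937, 10751 and 9552 TPM in Nup210-/- replicates 1 to 4. All 4 libraries labelled Nup210-/- were above the highest labelled Nup210+/+, and the means were 10012 ± 518 and 9002 ± 261 TPM (SD, n = 4). The log2 fold change was 0.25 (standard error 0.087, interval 0.05 to 0.44), the adjusted p was 0.253, and the exact permutation test on TPM gave p = 0.0286. It was positive under each of 19 alternatives, from 0.15 to 0.30. The fast-fiber markers moved in the same direction, as given above, and their part in it was not tested. This gene has 1 of the overlaps on the opposite strand found for 6 of the 10 genes, here with Rabep2, and whether the strand of reads was used for counting was not stated. The exons of no gene of the 10 overlapped another gene on the same strand.

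Atp2a2 (ENSMUSG00000029467, chr5:122453513-122502225, minus strand), the SERCA2 of slow fibers and heart, was 167, 99.7, 146 and 178 TPM with Nup210+/+ and 87.9, 167, 88.9 and 158 TPM with Nup210-/-. Of the 8 libraries, 3 were at 99.7 TPM or below, 1 of Nup210+/+ and 2 of Nup210-/-, and the other 5 were at 146 TPM or above. The log2 fold change was −0.17 (interval −0.78 to 0.44, adjusted p 0.805), and leaving out 1 library moved it from −0.35 without Nup210+/+ replicate 2 to −0.011 without Nup210-/- replicate 3. The longest stretch shared by both pump genes has 44 bases and begins at base 2254 of the 2985 coding bases of Atp2a1.
Atp2a1 and Atp2a2: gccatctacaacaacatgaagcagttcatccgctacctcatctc

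Sln (ENSMUSG00000042045, chr9:53850164-53854560, plus strand) encodes sarcolipin, a small membrane protein that binds SERCA and lowers its pumping efficiency. Its coding sequence is 96 bases and 31 codons before the stop, shown whole because it is so short, with the start and stop codons in capitals (chr9:53853473-53853568 of GRCm38, plus strand).
Sln: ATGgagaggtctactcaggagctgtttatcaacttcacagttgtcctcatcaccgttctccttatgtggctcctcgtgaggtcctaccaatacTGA
It was 14.8, 8.79, 9.53 and 11.6 TPM with Nup210+/+ and 7.70, 12.4, 6.97 and 14.6 TPM with Nup210-/-. The groups overlapped almost fully, with means of 11.2 ± 2.69 and 10.4 ± 3.68 TPM (SD, n = 4). The log2 fold change was −0.04 (interval −0.61 to 0.53, adjusted p 0.958), and it ranged from −0.23 to 0.13 over the alternatives.

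Pvalb (ENSMUSG00000005716, chr15:78191114-78206400, minus strand), the cytosolic calcium buffer of fast fibers, was 7863, 7534, 6993 and 8587 TPM with Nup210+/+ and 8022, 6794, 8668 and 7529 TPM with Nup210-/-. Its means, 7744 ± 667 and 7753 ± 791 TPM (SD, n = 4), differed by far less than the spread. The log2 fold change was 0.09 after scaling (interval −0.19 to 0.38, adjusted p 0.760), and leaving out 1 library moved it from 0.0086 without Nup210+/+ replicate 3 to 0.18 without Nup210+/+ replicate 4.

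Ratios within a library do not depend on how libraries are scaled, and 7 were compared with two-sided exact permutation tests on their log2 values, adjusted over the 7. The ratio of Casq1 to Ryr1, store buffer over release channel, was 5.95, 6.85, 6.11 and 5.76 with Nup210+/+ and 5.32, 4.71, 5.32 and 5.47 with Nup210-/-. All 4 ratios with Nup210-/- were below all 4 with Nup210+/+, with means of 5.21 ± 0.340 and 6.17 ± 0.477 (SD, n = 4) and a log2 difference of −0.24 (standard error 0.073). The exact p was 0.0286, the smallest possible, and 0.200 after adjustment. With 7 ratios, 1 ratio alone at the smallest p cannot fall below 0.05 after adjustment. Without Nup210-/- replicate 2 the unadjusted exact p was 0.0571. The ratio of Pvalb to Atp2a1, buffer over pump, averaged 0.859 ± 0.0491 with Nup210+/+ and 0.774 ± 0.0614 with Nup210-/- (SD, n = 4), which overlapped (exact p = 0.0857, adjusted 0.300). That of Cacna1s to Ryr1 was close to 1 in every library, 0.995 to 1.20, with means of 1.09 and 1.06 (exact p = 0.486, adjusted 0.667).

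The labels overlapped in the other 4 ratios. Atp2a2 came to 1.64% of Atp2a1 with Nup210+/+ and to 1.26% with Nup210-/- on average, and to 0.827 to 1.91% in single libraries (exact p = 0.200, adjusted 0.467). Casq2 came to 3.41% and 3.06% of Casq1 (exact p = 0.714, adjusted 0.714), and Jph2 to 1.83 and 1.76 times Jph1 (exact p = 0.571, adjusted 0.667). Sln came to 0.124% and 0.105% of Atp2a1 (exact p = 0.400, adjusted 0.667).

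**Figure D3:**
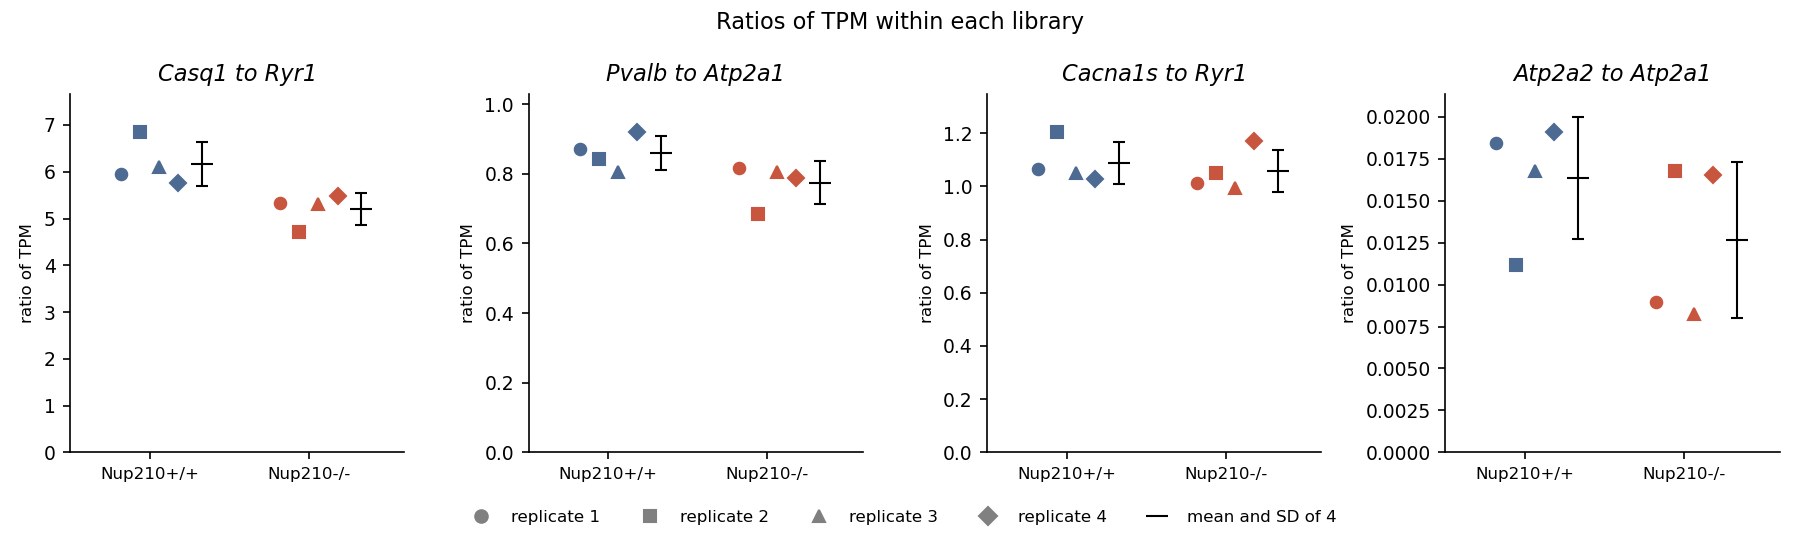
Ratio of TPM of a pair of genes within each library (vertical axes from 0), by genotype, with symbols for the replicate number and a bar for the mean and SD of 4 libraries. The Casq1 to Ryr1 ratio does not overlap between genotypes, while the other ratios shown do.

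The variation of Atp2a2, Sln and Casq2 between mice went with the slow-fiber signal of each library. A slow-fiber score was taken as the mean log2 deviation of 7 sarcomere genes of slow fibers, Myh7, Myl2, Myl3, Tnnt1, Tnni1, Tnnc1 and Tpm3. It was 0.31, −0.40, −0.02 and 0.45 in Nup210+/+ replicates 1 to 4 and −0.55, 0.36, −0.56 and 0.40 in Nup210-/- replicates 1 to 4, and did not separate the labels (difference −0.17, exact permutation p = 0.600). Across the 8 libraries Pearson's r with the score was 0.996 for Atp2a2 (exact permutation p = 4.96e-05, adjusted over 10 relations 0.000496), with Spearman's rho of 0.976 (adjusted exact p = 0.00397). For Sln r was 0.910 (exact permutation p = 0.00816, adjusted 0.0343) and rho 0.833 (adjusted 0.0769). For Casq2 r was 0.821 (exact permutation p = 0.0103, adjusted 0.0343) and rho 0.786 (adjusted 0.0931). The libraries were unevenly spread, with 3 at −0.40 or below, 1 near 0 and 4 at 0.31 or above, so r weighs mostly the gap between a lower and a higher bunch.

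The 2 libraries farthest from the median score were Nup210-/- replicates 1 and 3. Without them r over the other 6 was 0.995 for Atp2a2 (unadjusted exact permutation p = 0.00278). It was 0.848 for Sln and 0.884 for Casq2 (unadjusted p = 0.0458 and 0.0333 in the same exact test). In this setting 2 of the 10 genes had an adjusted p under 0.05, Atp2a2 and Ryr1, and Sln and Casq2 did not. On deviations from the mean of each genotype r was 0.996 for Atp2a2, 0.920 for Sln and 0.818 for Casq2. Over all 8 libraries the other 7 genes had r between −0.30 and 0.17 with unadjusted exact p of 0.457 or more. Among them Ryr1 changed from 0.05 to 0.90 without those 2 libraries (unadjusted exact permutation p = 0.00694). Its r on deviations from genotype means was 0.35 (unadjusted exact permutation p = 0.354). Both libraries left out are Nup210-/- with low scores, so the other 6 hold no Nup210-/- library of low score. A difference between labels thus enters the 0.90, and how far was not tested. In Nup210+/+ replicates 1 to 4 scaled Ryr1 was 268, 229, 233 and 296 TPM, and rose with the score. In Nup210-/- replicates 1 to 4 it was 312, 311, 318 and 295 TPM, and fell as the score rose. Atp2a2 and Casq2 are also used in heart, and of 7 heart markers 4 were below 1 TPM in every library, among them Myl7 at 0. The other 3 were Tnnt2 at 1.14 to 2.42 TPM, Myl4 at 5.45 to 10.72 TPM and Actc1 at 189 to 380 TPM, and their part in these correlations was not tested.

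**Figure D4:**
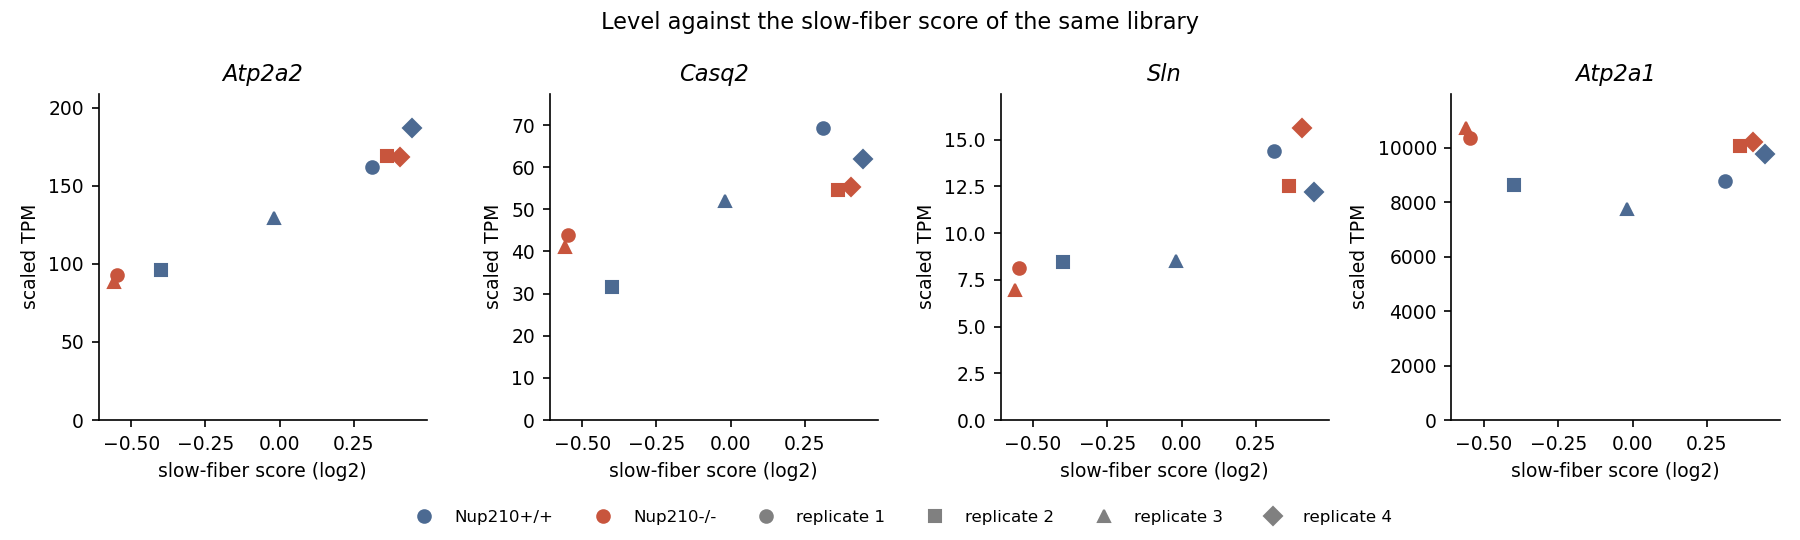
Scaled TPM of Atp2a2, Casq2, Sln and Atp2a1 (vertical axes from 0) against the slow-fiber score of the same library (horizontal axis, log2), colored by genotype. Atp2a2 follows the score (r 0.996), Casq2 and Sln follow it less closely, and Atp2a1 does not (r −0.10).

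The strongest correlations between the 10 genes over the 8 libraries lay mostly within 3 sets of 3 genes. They are given as a description, because the values of a library share its scaling. Genotype means were not removed, here or for the genes most like each of the 10. The first set below holds the 3 genes with the highest log2 fold changes of the 10. A difference between labels thus enters its r, and how far was not tested. Cacna1s, Ryr1 and Atp2a1 were correlated with r of 0.85 to 0.93, Casq1, Pvalb and Jph2 with r of 0.91 to 0.98, and Atp2a2, Casq2 and Sln with r of 0.75 to 0.89. The first sets were not separate, as r was 0.74 between Atp2a1 and Pvalb, and Jph1, in none of the sets, had r of 0.78 with Cacna1s. Between the last set and the other 7 genes r lay between −0.27 and 0.36 over 21 pairs. Among 6085 genes with a mean of at least 10 TPM, those most like Atp2a2 were Tnnc1, Tnnt1 and Tnni1, with r of 0.99, 0.99 and 0.97, all of which are troponins of slow fibers and part of the score. Sln was most like Armcx3, Myh7 and Churc1 (r 0.93, 0.93 and 0.92), and Casq2 most like Hspg2, Fxyd6 and Snx12 (0.97, 0.96 and 0.95).

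For Atp2a1 the closest were Txlnb, St3gal3 and Cacnb1 (r 0.99, 0.99 and 0.98), of which Cacnb1 encodes the beta subunit of the voltage sensor. Cacna1s was most like Pde4dip, Syf2 and Dis3l (0.98, 0.97 and 0.97), and Ryr1 most like Myo18a, Dedd and Ttc7b (0.98 each). Casq1 and Pvalb each had the other as second closest, with r of 0.98, and Rnf11 as the closest, with r of 0.98 and 0.99. Rian was the next for Casq1 (0.98) and Fis1 for Pvalb (0.98). Jph1 was most like Tial1, Ttc33 and Aldh1a1 (0.96, 0.95 and 0.95), and Jph2 most like Pdlim7, Rian and Abcf3 (0.95 each).

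Promoters of 7 of the 10 genes were in the RefSeq table for GRCm38.p6, with 9 entries, each 250 bases before to 50 after a start site. The 250 bases before the start site are shown for Cacna1s, Ryr1 and Atp2a1, the first of the correlated sets above. They are also shown for Casq2 and Pvalb, whose windows hold a match to the MEF2 motif. Capitals mark E-boxes (CANNTG, the site of MyoD-type factors) and MEF2 matches, searched on both strands, and no marked sites overlap.
Cacna1s, chr1:136052561-136052810, plus strand: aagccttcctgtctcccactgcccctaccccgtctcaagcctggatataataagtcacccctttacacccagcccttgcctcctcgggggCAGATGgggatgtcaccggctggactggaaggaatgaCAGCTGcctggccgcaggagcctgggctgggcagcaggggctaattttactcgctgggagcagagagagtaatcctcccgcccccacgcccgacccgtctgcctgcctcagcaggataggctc
Ryr1, chr7:29125152-29125401, minus strand: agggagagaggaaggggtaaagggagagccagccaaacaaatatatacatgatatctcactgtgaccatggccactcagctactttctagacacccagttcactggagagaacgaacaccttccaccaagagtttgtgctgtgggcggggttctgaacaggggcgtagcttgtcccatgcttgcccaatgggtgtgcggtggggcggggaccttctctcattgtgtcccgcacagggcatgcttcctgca
Atp2a1, chr7:126463074-126463323, minus strand: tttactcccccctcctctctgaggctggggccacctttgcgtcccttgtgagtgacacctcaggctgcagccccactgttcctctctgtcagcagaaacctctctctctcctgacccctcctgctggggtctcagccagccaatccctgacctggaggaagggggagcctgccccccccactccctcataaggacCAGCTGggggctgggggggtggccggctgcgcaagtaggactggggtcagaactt
Casq2, chr3:102086165-102086414, plus strand: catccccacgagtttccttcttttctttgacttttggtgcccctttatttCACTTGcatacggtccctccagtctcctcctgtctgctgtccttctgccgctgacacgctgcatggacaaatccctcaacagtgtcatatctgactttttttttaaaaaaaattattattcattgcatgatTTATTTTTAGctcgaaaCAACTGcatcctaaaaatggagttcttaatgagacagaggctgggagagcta
Pvalb, chr15:78206401-78206650, minus strand: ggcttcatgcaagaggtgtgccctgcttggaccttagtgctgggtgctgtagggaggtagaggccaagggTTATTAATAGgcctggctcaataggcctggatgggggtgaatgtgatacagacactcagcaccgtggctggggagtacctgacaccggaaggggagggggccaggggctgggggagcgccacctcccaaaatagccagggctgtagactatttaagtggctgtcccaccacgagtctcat
An E-box was in 7 of the 9 entries, from 6 of the 7 genes, and in 72.3% of 32851 promoters of the same length, so its presence is common. Pvalb held E-boxes only in its other entry, which is not shown. The window of Ryr1 held neither an E-box nor a MEF2 match. The MEF2 matches, TTATTTTTAG in Casq2 and TTATTAATAG in Pvalb, begin 69 and 180 bases before the start site, and 3.19% of all promoters hold such a match. A match is a description of letters, not of binding.

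Of the other genes of calcium handling, 67 of 70 listed names were in the table and 60 passed the filter. Of these, 0 reached the threshold on the adjusted p, and the lowest was 0.121 in limma. At an unadjusted p under 0.05, 18 of 60 were found beside the background of 14.2%, with 15 higher in the libraries labelled Nup210-/- and 3 lower, but as deposited these counts were 6 and 3. Without Nup210+/+ replicate 2 they were 12 and 2, and without replicate 3 they were 13 and 2. Their median log2 fold change was 0.09, and −0.003 as deposited, beside −0.01 and −0.08 over all tested genes. After scaling 44 of 60 were above 0, beside 48.7% of tested genes, and as deposited 29 of 60 were. Counts by direction thus depend on the scaling, for these genes as for the 10 and for all tested genes. Those higher were 15 of 60 beside 996 of 14229 tested genes after scaling, and 6 of 60 beside 335 as deposited. Those lower were 3 of 60 beside 1021, and 3 of 60 beside 1679, in the same order. The share higher was thus larger among the 60 than among all tested genes on either scale. That difference in shares was not tested. The median over all tested genes moved with the scaling as well.

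The partners of the voltage sensor were all 5 positive on either scale, from Cacng6 at 0.11 to Cacng1, its gamma subunit, at 0.22 (adjusted p 0.225). Among paralogs of the release channel, Ryr2, the form of heart, was at most 0.02 TPM and Ryr3 0.04 to 0.21 TPM, both far below Ryr1. Its partners ranged from Selenon at −0.34 (adjusted p 0.296) to Tmem38b, a potassium channel of the store, at 0.29 (adjusted p 0.132). Tmem38b was 36.4, 40.6, 37.3 and 34.6 TPM with Nup210+/+ and 40.7, 47.2, 42.2 and 41.7 TPM with Nup210-/-, without overlap.

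Jph3 and Jph4, the junctophilins of brain, were at most 0.06 and 0.18 TPM. At the transverse tubule, Cav3 was the lowest at 0.06 (−0.03 as deposited) and Bin1, which shapes the tubule membrane, the highest at 0.29. Bin1 was 278, 255, 282 and 272 TPM with Nup210+/+ and 298, 305, 322 and 317 TPM with Nup210-/-, without overlap, with an adjusted p of 0.121. Of the regulators of the pumps, Mrln, which encodes the SERCA inhibitor myoregulin, averaged 119 ± 15.5 and 144 ± 12.1 TPM (SD, n = 4), which is 0.37 as a log2 fold change (adjusted p 0.268). Pln, phospholamban, the inhibitor of SERCA2, was 1.06 to 3.58 TPM with a log2 fold change of −0.32 (adjusted p 0.483), and the third pump gene Atp2a3 was 1.93 to 6.94 TPM with −0.14 (adjusted p 0.848). Strit1, whose product stimulates SERCA, was not matched in the table.

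In store-operated entry the range was from Orai2 at −0.22 to Orai1, the plasma membrane channel, at 0.18 (adjusted p 0.290). In export across the plasma membrane it was from Atp2b4 at −0.15 to Slc8a1, the sodium-calcium exchanger, at 0.47 (standard error 0.104, adjusted p 0.121). Slc8a1 was 5.78, 5.29, 6.89 and 5.11 TPM with Nup210+/+ and 9.15, 7.69, 8.10 and 6.51 TPM with Nup210-/-, which overlapped as deposited and did not after scaling. Mitochondrial uptake ran from Slc8b1 at −0.12 to Micu2, a gatekeeper of the uniporter, at 0.23 (adjusted p 0.212). Kinases and sensors ran from Sri at −0.42 (adjusted p 0.211) to Camk2b, a calmodulin-dependent kinase, at 0.33 (adjusted p 0.169). Sri, which encodes sorcin, was 20.8, 24.4, 21.7 and 14.0 TPM with Nup210+/+ and 12.6, 15.6, 14.6 and 12.02 TPM with Nup210-/-. Sri, Selenon and Calr were the 3 lower genes at an unadjusted p under 0.05, and Calr, the store chaperone calreticulin, was named after its values were seen.

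**Figure D5:**
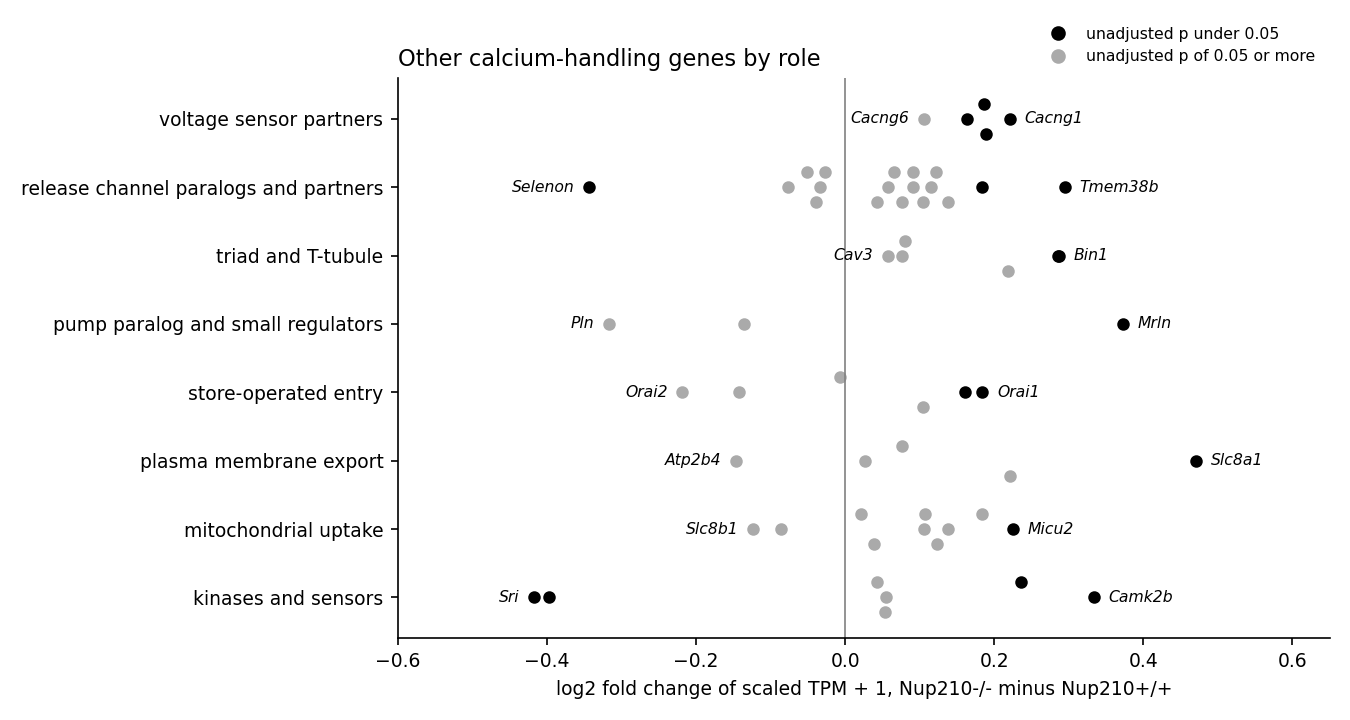
Log2 fold change of 60 other calcium-handling genes (horizontal axis, scaled TPM, Nup210-/- minus Nup210+/+) by role, black where the unadjusted p in limma was under 0.05 and grey otherwise. The highest and lowest gene of each role are named, a second black circle lies under that of Bin1, and most circles lie above 0, as 44 of 60 do.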

How the data were processed

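RNA of quadriceps from 8 mice was selected for poly(A), made into directional libraries and sequenced single-end at 1 × 75 bases. The authors trimmed reads with cutadapt 2.3, aligned them with STAR 2.7.0d to mm10 and estimated expression with RSEM 1.3.1 on an Ensembl annotation, as their methods and processing notes state, and the table they deposited holds TPM per gene and library without pooling. Whether RSEM used strand was not stated. The authors compared estimated counts with DESeq2, and those counts were not used here, so no count model was run and the depth of a library is unknown.

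TPM were divided by a median-of-ratios factor, 0.936 to 1.12, over 15225 genes above 0 in all libraries. Genes with a mean of at least 0.5 TPM were tested as log2(scaled TPM + 1) with limma 3.58.1 in R 4.3.3 (eBayes with trend, genotype as the only term), which was tested on simulated data first. There it called 28.5% of changes of 0.5 on the log2 scale and 79.2% of changes of 1. The changed genes, 200 in each simulation, were drawn at random from all tested genes, so these are not rates for the 10 genes. Smaller changes were not simulated, and the largest log2 fold change of the 10 genes was 0.28 (Ryr1). A gene of the 10 that was not called may thus still differ. Single values were compared by two-sided exact permutation over 70 labelings. Ratios and correlations were adjusted by Benjamini-Hochberg within their family. Genes named were the 10, the paralogs Ryr2, Ryr3, Atp2a3, Jph3 and Jph4, the regulators Pln, Mrln and Strit1, the highest and lowest tested gene of each role, the 3 genes most like each of the 10, and Nup210. The members and lists were chosen with earlier results of these data known.

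Coordinates and transcripts are from GENCODE M21 on GRCm38, and promoters from RefSeq on GRCm38.p6. No pair of libraries was a duplicate, since at most 201 tested genes had equal TPM to 2 decimals in a pair. Each library is taken as 1 mouse, from the labels and methods. The replicate numbers occur in both genotypes, but the mice are different animals, and the block on them was tried only as an alternative, with pseudocounts, filters, scalings, variance settings, library weights and each library left out.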

Additional observations from a re-analysis of the deposited data

How the results depend on the processing

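No setting brought any of the 10 genes, or of the other calcium genes, past the adjusted p of 0.05 in limma, and 3 to 5 of the 10 had an unadjusted p under 0.05. Cacna1s, Ryr1, Jph1, Atp2a1 and Atp2a2 kept their direction under all 19 alternatives. The number of all genes called moved from 16 to 1 with any TPM above 0, 27 with a mean of at least 1 TPM, 10 when scaled without mitochondrial and the top 20 genes, 84 with library weights, and 0 with upper-quartile scaling, without the trend or with the replicate block. At an unadjusted p under 0.05 those last 3 had 1184 higher and 887 lower, 887 and 1065, and 888 and 962. Leaving out 1 library gave 0 to 10 genes called, where 0 came without Nup210-/- replicates 1, 3 or 4, with 778 higher and 797 lower, 815 and 829, and 814 and 830 at an unadjusted p under 0.05. The split of those genes was 996 higher and 1021 lower in the reported comparison, 49.4% higher, against 335 and 1679 as deposited, 16.6%, and 717 and 1199, 37.4%, scaled without mitochondrial and the top 20 genes. The median log2 fold change over all tested genes moved with the scaling, at −0.0061, −0.085 and −0.035 in the same order. Why it was below 0 as deposited, and why the number called moved, was not tested.

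As deposited, the median log2 fold change of the 10 genes was −0.019, and Jph2 was −0.039, Casq1 −0.062 and Pvalb −7.5e-05. Casq1 was −0.0024 when scaled without mitochondrial and the top 20 genes. Leaving out 1 library, the median of the 10 ranged from 0.00049, without Nup210+/+ replicate 3, to 0.12, Jph2 from −0.0081 to 0.11, Casq1 from −0.012 to 0.078, Casq2 from −0.32 to 0.049, Atp2a2 from −0.35 to −0.011, Pvalb from 0.0086 to 0.18 and Sln from −0.23 to 0.13. The log2 difference of Casq2 to Casq1 ranged from −0.36 to 0.010 and that of Cacna1s to Ryr1 from −0.091 to 0.0091. The number of ratios without overlap was 1, and 2 without Nup210+/+ replicate 3 (range 1 to 2).

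Against the slow-fiber score, r had an adjusted p under 0.05 for 3 genes, and for 1 to 3 with 1 library left out: 1 without Nup210+/+ replicates 1, 3 or 4 or Nup210-/- replicates 2, 3 or 4. With 1 library left out r itself was 0.995 to 0.997 for Atp2a2, 0.88 to 0.94 for Sln and 0.79 to 0.88 for Casq2. Their unadjusted exact permutation p were at most 0.000397, 0.0208 and 0.0337. Why the count changed was not tested. As deposited r was −0.12 for Ryr1 and −0.10 for Jph1. For Atp2a1 it was 0.10 with Myh7 alone and 0.12 on deviations from genotype means. Without the 2 farthest libraries it was 0.32 for Jph2, 0.34 for Casq1, 0.68 for Atp2a1 and 0.51 for Pvalb. With 1 library left out r ranged from −0.032 to 0.32 for Cacna1s, −0.24 to 0.32 for Ryr1, −0.24 to 0.28 for Jph1, −0.58 to 0.044 for Jph2, −0.25 to 0.16 for Atp2a1 and −0.40 to 0.085 for Pvalb.

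Same-numbered libraries of the labels did not deviate together (correlations −0.03 to 0.09), and 1 of 4 libraries correlated best with its own number, so the replicate block, with 3 of the 10 genes at an unadjusted p under 0.05, is an alternative only. Depth is unknown, so the counting error of low genes such as Sln cannot be given.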
